A study of Mus musculus with 24 samples.

Results

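The genes described here encode, in the nuclear genome, most of the machinery of mitochondrial respiration: subunits of complex I, complex II, complex III and the ATP synthase, together with factors that assemble complex I. They were chosen by symbol, as rows starting with Nduf, Uqcr or Atp5 plus Sdha, Sdhb, Sdhc, Sdhd and Cyc1, kept when 4 or more libraries had a log2 value of at least 0. The table held 82 such rows and 82 passed this filter, out of 13272 rows that passed in all. No measured difference between samples entered the choice.

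Complex I takes electrons from NADH and complex II from succinate, and both hand them to coenzyme Q. Complex III passes them on to cytochrome c, and complex IV (cytochrome oxidase) gives them to oxygen. The proton gradient built on the way drives the ATP synthase, a rotary enzyme with a catalytic F1 head and a ring of c subunits in the membrane. A small part of complexes I, III, IV and V is encoded by mitochondrial DNA, and the remaining subunits are made in the cytosol and imported, so the chain depends on messages from both genomes.

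The cells were MC38, a mouse colon carcinoma line grown in medium with serum. Ado KO cells carried a guide RNA targeting Ado, which codes for a dioxygenase acting on thiols, and control cells carried a control guide RNA. There were 2 guides of each kind, giving 4 guide populations. Ado KO and control cells were untreated, or received TNF, an inflammatory cytokine that activates NF-kB, lasting 1 h or 6 h. With 2 libraries for every population at every time, the 6 groups (Ado KO or control, at each time) had 4 libraries apiece, named below by guide and replicate, so that 1-2 is replicate 2 of guide 1. The labels do not say that replicates came from separate cultures, and the p-values then reflect only how these libraries vary. The labels name no untreated cells cultured for a further 6 h, so TNF and time in culture cannot be told apart.

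Values are log2 CPM from a 3' kit (tags from the ends of messages, scaled to a common total, on a log2 scale). Tags were not scaled by gene length, so the levels of different genes below describe tags and not molecules. The estimated depth, a rough figure because the values had already been normalized, was 4260000 to 6630000 tags per library. Ado itself averaged 5.35 ± 0.09, 5.35 ± 0.16 and 5.30 ± 0.20 log2 CPM in untreated, 1 h and 6 h Ado KO cells, and 5.26 ± 0.08, 5.19 ± 0.15 and 5.13 ± 0.10 in control cells (SD, n = 4 each). Tags from the 3' end count a message whether or not a guide has cut the gene, so they do not check the knockout. Nfkbia, a target of NF-kB that marks the TNF response, was higher by 3.08 (SE 0.08) in Ado KO cells and by 2.99 (SE 0.08) in control cells at 6 h on the log2 scale (limma, adjusted p = 1.28e-23 and 5.22e-24). Of the cell type markers listed, 3 of 11 epithelial markers were in the table, at a summed 0.294 to 3.37 CPM per library, with Krt8 the highest of them. Fibroblast and mesenchymal markers, 5 of 8 in the table, summed to 1320 to 1730 CPM, with Vim the highest, immune markers, 7 of 12, to 7.40 to 36.9 CPM, and endothelial and pericyte markers, 4 of 7, to 1.25 to 9.11 CPM. The fibroblast and mesenchymal sum was mostly Vim, at 10.29 to 10.71 log2 CPM per library. Col3a1 stood at 4.71 to 6.27, Dcn at 3.01 to 4.36, Pdgfra at 0.84 to 3.39 and Thy1 at -1.7 to 3.16. Col1a1, Col1a2 and Lum were not in the table.

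By role, the 82 rows comprised 7 core subunits of complex I, which carry its flavin and iron-sulfur clusters, and 29 accessory subunits. A further 8 rows were assembly factors (Ndufaf1 to Ndufaf8), 4 were the subunits of complex II, 9 belonged to complex III and 15 to the ATP synthase. The other 3 were Ndufa4, now known as a cytochrome oxidase subunit, Atp5s and Atp5sl. The last 7 rows were annotated as pseudogenes (Atp5k-ps2, Atp5l-ps1, Atp5l-ps2, Atp5l2-ps, Ndufab1-ps, Uqcrh-ps1 and Uqcrh-ps2). These are near-copies of members, and how tags were shared between Atp5k, Atp5l, Ndufab1, Uqcrh and their copies is not given in the sources used here, so the values of all of them are uncertain.

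Most members were well expressed: 79 of the 82 rows reached 0 on the log2 scale in all 24 libraries. The highest mean levels over all libraries were 9.43 log2 CPM for Atp5g3, 9.28 for Atp5g2 and 8.95 for Atp5b. Atp5g3 and Atp5g2 encode c-ring subunits, and Atp5b encodes the catalytic beta subunit of F1. Within complex I, accessory subunits ran from Ndufa1 at 4.25 to Ndufb8 at 8.88 log2 CPM, and the lowest core subunit was Ndufs1 at 4.12. Assembly factors were the lowest of the functional classes, from Ndufaf1 at 1.30 to Ndufaf8 at 6.80 log2 CPM. Complex II ran from Sdhd at 5.69 to Sdhb at 6.67, complex III from Uqcrc2 at 5.58 to Uqcrh at 8.40, and the ATP synthase from Atp5j at 5.54 to Atp5g3. The members nearest the filter were Uqcrh-ps2, which passed it in 11 libraries at a mean of -0.04, Atp5s in 17 libraries at 0.33, and Uqcrh-ps1 in 19 libraries. No row of the table that met the name rule fell outside the filter.

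The promoters of respiratory chain genes are known for sites of the transcription factor NRF1, a palindrome-like GC-rich motif, and of YY1 and ETS factors such as GABP. RefSeq promoters on GRCm38.p6, from 250 bases before to 50 bases after a start, were matched by symbol for 64 of the 75 members that are not pseudogenes and for 8959 of the rows tested. Letters were searched on both strands, and the looser form of a motif includes the stricter. GCGCATGCG, the NRF1 core, stood in promoters of 9 of 64 members (14.1%) and of 4.42% of all matched rows. With any base at its centre (GCGCNTGCG) it stood in 25 members (39.1%), against 16.3% of all matched rows. The YY1 letters AAGATGGCG were found in 9 members (14.1%) and in 3.90% of all matched rows, and the shorter AAGATGG in 12 (18.8%) and 8.74%. The ETS letters CCGGAAGT went the other way, at 4 members (6.25%) and 9.89% of all matched rows. Windows of 4 members that changed in control cells after 6 h are shown, 5′ to 3′ on the strand of the gene, because 3 of them fell and 1 rose while all hold the same NRF1 letters. They were picked after their values were seen. Of 16 matched members called lower in control cells at 6 h, 4 (25.0%) held GCGCATGCG. Capitals mark the NRF1 match, read on either strand, and in Uqcr11 also the ETS letters. They lie at chr5:108434420-108434479 (minus strand) for Atp5k, chr10:80406812-80406901 (minus) for Uqcr11, chr2:36049329-36049378 (minus) for Ndufa8 and chr4:24897943-24898002 (plus) for Ndufaf4.
Atp5k: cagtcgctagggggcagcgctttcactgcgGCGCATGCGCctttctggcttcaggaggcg
Uqcr11: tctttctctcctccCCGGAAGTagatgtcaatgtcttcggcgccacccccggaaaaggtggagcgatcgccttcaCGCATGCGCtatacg
Ndufa8: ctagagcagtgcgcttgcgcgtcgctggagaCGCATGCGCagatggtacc
Ndufaf4: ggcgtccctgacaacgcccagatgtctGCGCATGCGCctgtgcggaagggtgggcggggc
A match describes the letters of the window and says nothing of whether a factor was bound.

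After 6 h of TNF the summed level of all members was lower in both genotypes. In Ado KO cells the sum was 10312, 10606, 10053 and 10265 CPM at 6 h, against 11198, 11209, 11028 and 10922 CPM in untreated cells, a difference in means of -7.03%. In control cells it was 9620, 9952, 10240 and 9956 CPM at 6 h, against 10699, 10923, 11192 and 11001 CPM in untreated cells, a difference of -9.24%. The 6 h and untreated libraries did not overlap in either genotype. In bulk RNA, fewer cells that express a gene and less of its RNA per cell cannot be told apart. The sums of the main classes in Ado KO cells differed by -7.89% for complex I core subunits, by -8.14% for accessory subunits, -6.09% for complex III and -7.56% for the ATP synthase. In control cells these were -11.4%, -12.2%, -5.84% and -10.5%. The sum over complex II differed by -5.64% in Ado KO cells and by 4.48% in control cells. In control cells Sdhd, whose level varied widely between libraries, had a log2 fold change of 0.77 (limma adjusted p = 0.405), while Sdhb (-0.24) and Sdhc (-0.20) had values below 0. The sum of pseudogene rows differed by -2.81% in Ado KO and -0.292% in control cells.

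**Figure D1:**
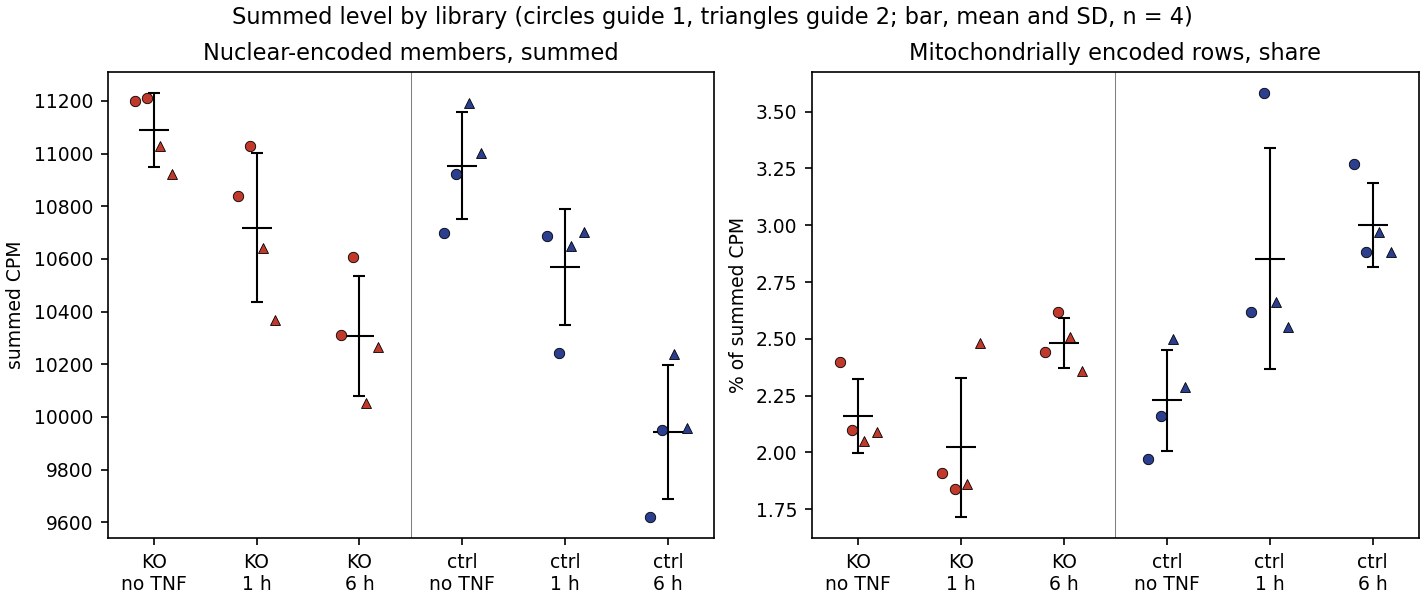
Summed CPM of the 82 nuclear-encoded members (left) and the share of summed CPM from mitochondrially encoded rows in % (right) in each library, with times running from untreated (no TNF) to 6 h within Ado KO (KO) and control (ctrl) cells. Circles are guide 1, triangles guide 2, and bars give the mean and SD of 4 libraries; the member sum at 6 h lay between 10053 and 10606 CPM in Ado KO and between 9620 and 10240 CPM in control cells, below every untreated library of the same genotype.

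After 6 h in Ado KO cells, 3 of 82 members fell and 0 rose (limma, Benjamini-Hochberg adjusted p under 0.05 over all rows tested). Of all rows tested, 2.02% were called lower and 4.42% higher. All rows tested include low rows, whereas most members were well expressed. The shares here and below were not matched for level, and whether level accounts for their differences was not tested. The 3 were Ndufb11, Ndufb2 and Ndufb8, all accessory subunits in the membrane arm of complex I. At an unadjusted p under 0.05 there were 14 lower (17.1%) and 1 higher (1.22%), beside 9.62% and 8.22% of all rows tested. The median log2 fold change of the members was -0.097, beside -0.050 over all rows tested, and 66 of 82 point estimates (80.5%) were below 0, beside 58.9% of all rows. The 6 h and untreated libraries did not overlap for 14 members that were lower (17.1%) and 1 that was higher (1.22%), while over all rows tested these shares were 7.15% and 6.69%.

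Ndufb11 stood at 5.36, 5.34, 5.45 and 5.56 log2 CPM in Ado KO cells at 6 h, against 5.91, 5.73, 5.68 and 5.68 in untreated Ado KO cells. All 6 h libraries were below all untreated ones, by -0.32 (SE 0.09, limma adjusted p = 0.0205) on the log2 scale, with guide 1 at -0.46 and guide 2 at -0.17. Ndufb2 stood at 5.76, 5.52, 5.72 and 5.88 log2 CPM at 6 h, against 6.00, 6.00, 5.91 and 6.20 in untreated Ado KO cells. Its groups did not overlap either, and differed by -0.31 (SE 0.10, limma adjusted p = 0.0466). Ndufb8 showed the smallest spread of the 3, at 8.87, 8.80, 8.79 and 8.85 log2 CPM at 6 h, against 9.01, 9.02, 8.99 and 9.03 in untreated Ado KO cells. It was lower by -0.18 (SE 0.06, limma adjusted p = 0.0449), a difference of -11.9%. These calls lay close to the threshold: the count was 0 without untreated library 1-1, without 6 h library 1-1 or without 6 h library 1-2, and 1 without untreated library 1-2 or without 6 h library 2-1. It was also 0 with either guide left out and 5 with the guide populations as fixed terms. With only protein-coding rows, normalized again, it was 1. The call on Ndufb8 ended in 8 of 8 fits that left out 1 library, at a limma adjusted p of 0.064 to 0.126. That on Ndufb2 ended in 6 of 8 and that on Ndufb11 in 3 of 8.

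The other classes had 0 calls in Ado KO cells at 6 h by limma. Among 7 core subunits of complex I, 2 were lower at an unadjusted p under 0.05, and the smallest adjusted p in the class was 0.125. The 15 ATP synthase subunits had 14 point estimates below 0 and 4 lower at an unadjusted p under 0.05, with Atp5g1 nearest to the threshold at -0.22 (SE 0.07, limma adjusted p = 0.0695). Complex III had 1 of 9 lower at an unadjusted p under 0.05, Uqcrc1 at -0.22 (limma adjusted p = 0.105), and complex II had 0 of 4. Of the 8 assembly factors, Ndufaf4 was the one at an unadjusted p under 0.05, at 0.23 (limma adjusted p = 0.166).

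In control cells after 6 h, 19 of 82 members fell and 1 rose, which is 23.2% lower beside 10.3% of all rows tested, while 7.74% of all rows were called higher. Again the rows compared were not matched for level. The count without pseudogenes was 17 lower and 1 higher of 75. At an unadjusted p under 0.05, 34 were lower (41.5%) and 3 higher (3.66%), beside 19.4% and 11.7% of all rows tested. The median of the members was -0.175 and that of all rows tested -0.089, and again 66 of 82 point estimates (80.5%) were below 0, beside 60.6% of all rows. The 6 h and untreated libraries did not overlap for 19 members that were lower (23.2%) and for 3 that were higher (3.66%), while over all rows tested these shares were 11.5% and 8.64%. The 3 higher ones were Ndufaf4, Sdhd and Uqcrb. By class, 2 of 7 core subunits and 8 of 29 accessory subunits of complex I fell, as did 2 of 9 complex III subunits and 5 of 15 ATP synthase subunits. Of 4 complex II subunits 0 were called by limma, and at an unadjusted p under 0.05 Sdhb (-0.24) and Sdhc (-0.20) were lower and Sdha (0.18) higher.

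**Figure D2:**
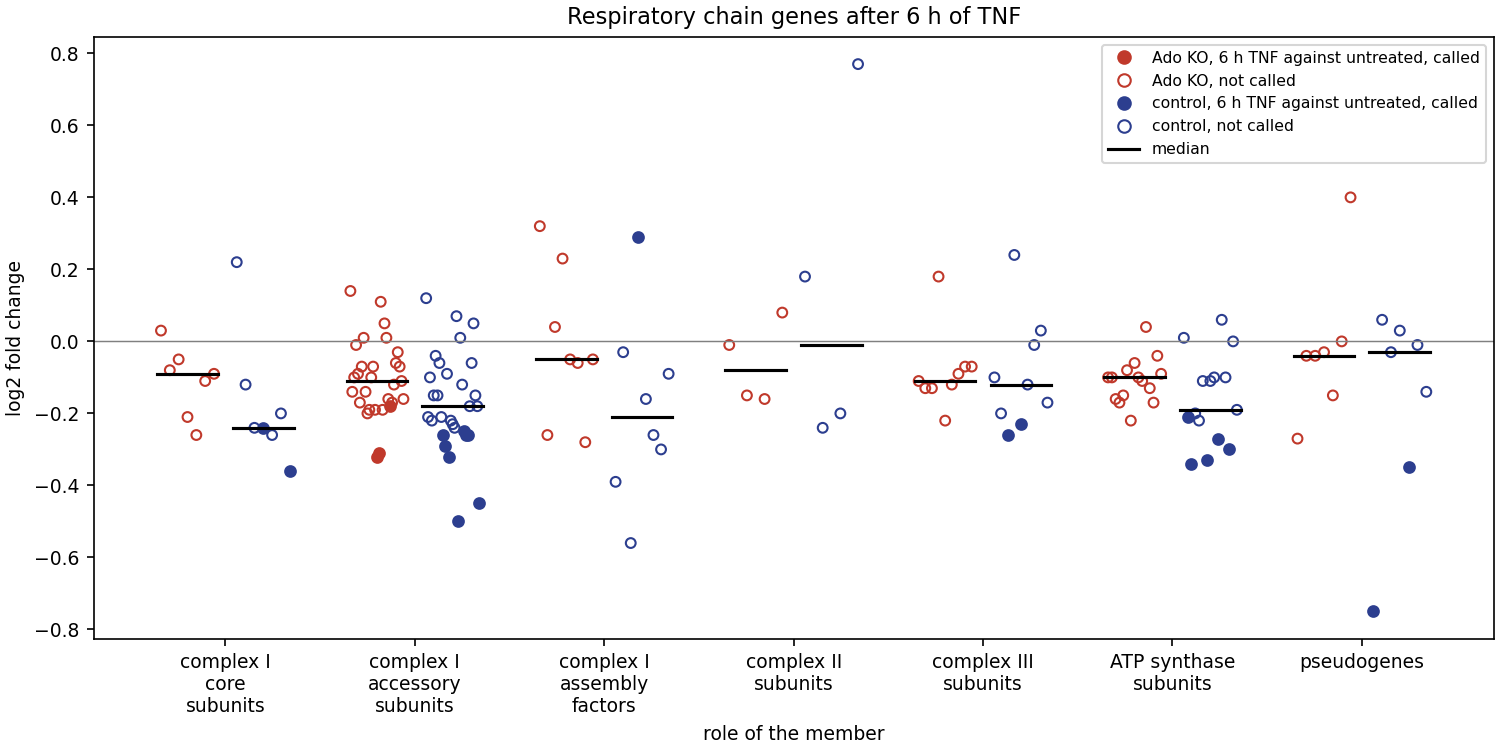
Log2 fold change of each member at 6 h of TNF against untreated cells, by role, in Ado KO (red) and control (blue) cells. Filled points passed limma's test at an adjusted p under 0.05, black lines are medians of the class, and Ndufa4, Atp5s and Atp5sl are not drawn; the filled points number 3 in Ado KO and 20 in control cells, and 1 of them, Ndufaf4 in control cells at 0.29, lies above 0.

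Among accessory subunits of complex I, Ndufb4 showed the largest drop in control cells. It stood at 5.19, 5.03, 5.17 and 5.24 log2 CPM in control cells at 6 h, against 5.55, 5.68, 5.63 and 5.78 in untreated control cells. No 6 h library reached the lowest untreated one, and the difference was -0.50 (SE 0.11, limma adjusted p = 0.000974), a change of -29.3%, and it was -0.50 with each guide. Ndufb8 stood at 8.65, 8.62, 8.81 and 8.71 log2 CPM at 6 h, against 8.96, 8.97, 8.93 and 8.98 in untreated control cells. It fell by 0.26 (SE 0.06, limma adjusted p = 0.00119), with groups that did not overlap. Ndufab1, the mitochondrial acyl carrier protein that is also a complex I subunit, fell by 0.32 (SE 0.09, limma adjusted p = 0.00875), with groups that overlapped. Its pseudogene row Ndufab1-ps had a fold change of -0.35 (limma adjusted p = 0.0445). The other accessory subunits that fell were Ndufb9 (-0.26, limma adjusted p = 0.0111), Ndufv3, Ndufa8, Ndufa7 and Ndufb7, between -0.45 and -0.25. Ndufb11 and Ndufb2 were lower in control cells by -0.23 and -0.24 without passing the test (limma adjusted p = 0.0650 and 0.0812), though their libraries did not overlap.

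The 2 core subunits of complex I that fell in control cells were Ndufv2 and Ndufs7, both of which hold an iron-sulfur cluster. Ndufv2 stood at 5.40, 5.20, 5.08 and 5.58 log2 CPM in control cells at 6 h, against 5.68, 5.63, 5.70 and 5.70 in untreated control cells. The groups did not overlap, although the 6 h libraries spread widely, and the difference was -0.36 (SE 0.09, limma adjusted p = 0.00591). Ndufs7 was lower by -0.24 (SE 0.08, limma adjusted p = 0.0439), with groups that did not overlap.

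Of the ATP synthase, Atp5k, the e subunit of the membrane part, fell with the smallest adjusted p of any member. It stood at 7.88, 7.92, 8.03 and 8.01 log2 CPM in control cells at 6 h, against 8.24, 8.24, 8.23 and 8.35 in untreated control cells. The difference was -0.30 (SE 0.06, limma adjusted p = 0.000449), with groups that did not overlap. Its pseudogene row Atp5k-ps2 had a mean of 2.04 log2 CPM over all libraries and a fold change of -0.75 (SE 0.27, limma adjusted p = 0.0491), with groups that overlapped. Atp5c1, the gamma subunit that forms the rotating shaft, stood at 7.27, 7.31, 7.38 and 7.28 log2 CPM at 6 h, against 7.56, 7.59, 7.73 and 7.73 in untreated control cells. It fell by 0.34 (SE 0.07, limma adjusted p = 0.00126), and no library of one group reached the other. Atp5h, the d subunit of the peripheral stalk, fell by 0.27 (SE 0.07, limma adjusted p = 0.00665), and Atp5b, the catalytic beta subunit, by 0.21 (SE 0.05, limma adjusted p = 0.00858).

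The c ring is encoded by 3 paralogs whose mature proteins are the same, and 1 of them passed the test. Atp5g1 stood at 8.36, 8.46, 8.70 and 8.52 log2 CPM in control cells at 6 h, against 8.82, 8.84, 8.94 and 8.77 in untreated control cells. All 6 h libraries were below all untreated ones, by -0.33 (SE 0.07, limma adjusted p = 0.00144). Atp5g2 and Atp5g3, at higher tag levels, had fold changes of -0.11 and -0.10 in control cells and did not pass. Whether Atp5g1 differed from its paralogs was not tested.

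In complex III, Uqcr11, a small subunit, and Uqcrc1, a core protein, fell in control cells. Uqcr11 stood at 6.79, 6.71, 6.77 and 6.84 log2 CPM at 6 h, against 7.09, 7.06, 7.09 and 6.92 in untreated control cells, without overlap. The difference was -0.26 (SE 0.07, limma adjusted p = 0.0110). Uqcrc1 fell by 0.23 (SE 0.08, limma adjusted p = 0.0433), with guide 1 at -0.38 and guide 2 at -0.07.

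Ndufaf4, a factor for early complex I assembly, was the member that rose. It stood at 5.17, 5.44, 5.56 and 5.24 log2 CPM in control cells at 6 h, against 5.10, 5.05, 5.08 and 5.04 in untreated control cells. Every 6 h library was above every untreated one, by 0.29 (SE 0.09, limma adjusted p = 0.0332). Its values in Ado KO cells were 5.35, 5.49, 5.30 and 5.60 at 6 h, against 5.10, 5.29, 5.20 and 5.22 in untreated cells, also without overlap. The remaining 7 assembly factors had point estimates below 0 in control cells, from -0.56 for Ndufaf3 upward, and 0 of them passed. The call on Ndufaf4 in control cells ended in 6 of 8 fits that left out 1 library, all but those without 6 h library 1-1 or 2-2, with an adjusted p of up to 0.134.

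The control count varied with the libraries kept. It was 10 without 6 h library 1-1 and 13 without 6 h library 1-2, 7 without guide 1 of both genotypes and 11 without guide 2. With 1 guide left out each group kept 2 libraries, so fewer libraries and a difference between guides cannot be told apart. Small non-coding RNA rows made up 1.455% ± 0.123 of the summed CPM in Ado KO cells at 6 h, against 0.322% ± 0.0553 in untreated ones, and 2.575% ± 0.536 in control cells at 6 h, against 0.263% ± 0.0178 in untreated ones (SD, n = 4 each). With protein-coding rows alone, normalized again, 14 members were lower and 1 higher of 73 in control cells. The shares of all rows called in these other fits are not given here, so their counts do not set the members apart from all rows. Calls on Atp5c1, Atp5g1, Atp5h, Atp5k, Ndufb4, Ndufb8, Ndufv2 and Uqcr11 held without each of the 8 libraries in turn. Of these, Atp5k and Ndufb4 also held without guide 1 and without guide 2. Without guide 1 the calls ended on Atp5g1, Atp5h, Ndufb8, Ndufv2 and Uqcr11 (limma adjusted p = 0.0619, 0.106, 0.124, 0.117 and 0.231). Without guide 2 they ended on Atp5c1, Atp5h and Ndufv2 (limma adjusted p = 0.0617, 0.071 and 0.0803).

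**Figure D3:**
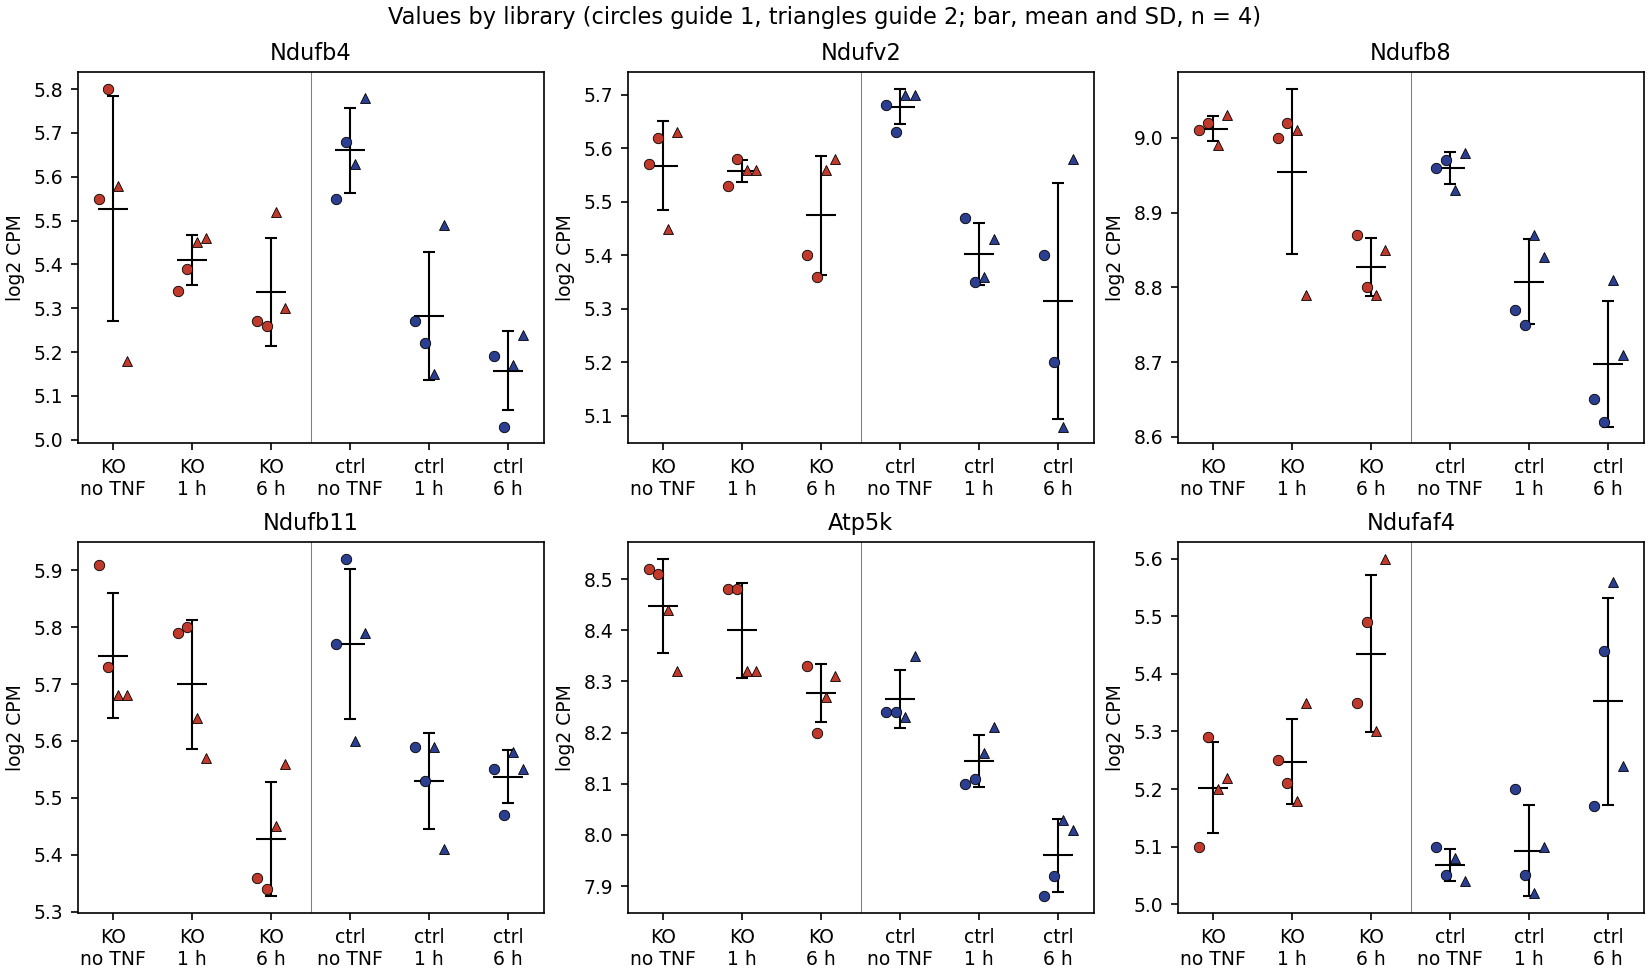
Log2 CPM of 6 members in each library, with times running from untreated (no TNF) to 6 h within Ado KO (KO, red) and control (ctrl, blue) cells. Circles are guide 1, triangles guide 2, and bars give the mean and SD of 4 libraries; in control cells Ndufb4, Ndufv2, Ndufb8 and Atp5k at 6 h lie below every untreated control library. In each genotype Ndufb11 at 6 h lies below, and Ndufaf4 above, every untreated library of that genotype.

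Neither genotype had a called member at 1 h. Limma called 0 of 82 at 1 h in Ado KO cells, beside 0.256% of all rows tested, with 2 higher and 4 lower at an unadjusted p under 0.05 (2.44% and 4.88%, beside 3.77% and 3.49% of all rows) and a median of -0.043. In control cells limma called 0 of 82, beside 0.392% of all rows tested, with 2 higher and 12 lower at an unadjusted p under 0.05 (2.44% and 14.6%, beside 7.78% and 6.36% of all rows) and a median of -0.079. Both counts were 0 under every alternative setting run. Several of the genes lower in control cells at 6 h had low values at 1 h already. Ndufb4 stood at 5.27, 5.22, 5.15 and 5.49 log2 CPM in control cells at 1 h, below the untreated 5.55, 5.68, 5.63 and 5.78 in every library, at -0.38 (SE 0.11, limma adjusted p = 0.110). Ndufb8 was at 8.77, 8.75, 8.87 and 8.84 in control cells at 1 h, also below every untreated library, at -0.15 (SE 0.06, limma adjusted p = 0.216). Ndufs1, the largest core subunit of complex I, was higher at 1 h in control cells by 0.41 (SE 0.12, limma adjusted p = 0.129), with groups that did not overlap. The 1 h and 6 h comparisons share the untreated libraries.

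Between genotypes, few members differed. Each genotype had 2 guide populations, and the fitted correlation between libraries of a population was 0.0485. The p-values between genotypes therefore reflect mainly how libraries vary, and not how knockout populations vary. In untreated cells limma called 0 of 82, beside 0.249% of all rows tested, with 1 higher and 4 lower in Ado KO cells at an unadjusted p under 0.05 (1.22% and 4.88%, beside 4.05% and 4.73% of all rows). The count was 1 with guide populations as fixed terms and 2 without guide 1. At 1 h limma called 2, beside 1.06% of all rows tested. At 6 h limma called 1, beside 1.02% of all rows tested, with 10 higher and 2 lower in Ado KO cells at an unadjusted p under 0.05 (12.2% and 2.44%, beside 6.69% and 4.70% of all rows). The members' median difference between Ado KO and control cells was 0.064 at 6 h, and that of all rows tested 0.020.

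Atp5k was higher in Ado KO cells at both times after TNF. At 6 h it stood at 8.33, 8.20, 8.27 and 8.31 log2 CPM in Ado KO cells, against 7.88, 7.92, 8.03 and 8.01 in control cells. The groups did not overlap and differed by 0.31 (SE 0.06, limma adjusted p = 0.00669), a level 24.3% higher. At 1 h it stood at 8.48, 8.48, 8.32 and 8.32 in Ado KO cells, against 8.10, 8.11, 8.16 and 8.21 in control cells, higher by 0.26 (SE 0.06, limma adjusted p = 0.0359). In untreated cells it stood at 8.52, 8.51, 8.44 and 8.32 in Ado KO cells, against 8.24, 8.24, 8.23 and 8.35 in control cells, with an overlap and a difference of 0.18 (SE 0.06, limma adjusted p = 0.293). The Atp5k-ps2 row had differences of 0.44, 0.16 and -0.04 at 6 h, at 1 h and in untreated cells (SE 0.28 each) and did not pass. The 6 h call on Atp5k held without each of the 8 libraries in turn, and ended without guide 1 (adjusted p = 0.0824) and without guide 2 (0.0550). The 1 h call ended without control library 1-1 or 1-2 or Ado KO library 1-1, 1-2 or 2-1, at 0.24, 0.25, 0.23, 0.23 and 0.28 on the log2 scale.

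Ndufb3, an accessory subunit of complex I, was lower in Ado KO cells at 1 h. It stood at 6.58, 6.53, 6.63 and 6.81 log2 CPM in Ado KO cells, against 6.96, 7.38, 6.86 and 6.88 in control cells. The groups did not overlap, control library 1-2 stood above the other 3, and the difference was -0.38 (SE 0.10, limma adjusted p = 0.0496). Without that library it was -0.26 (limma adjusted p = 0.144), and the call also ended without control library 1-1 (-0.40) or Ado KO library 1-1, 1-2 or 2-1 (-0.36, -0.35 and -0.37). At 6 h Atp5c1 lay at 7.66, 7.61, 7.63 and 7.52 log2 CPM in Ado KO cells, against 7.27, 7.31, 7.38 and 7.28 in control cells. These groups did not overlap, and the difference of 0.30 (SE 0.08) fell just short of the threshold (limma adjusted p = 0.0535).

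The test of whether the TNF response itself differed between genotypes called 0 members at 6 h, beside 0.347% of all rows tested, and 0 at 1 h, beside 0% of all rows tested. At an unadjusted p under 0.05 there were 3 higher and 0 lower at 6 h, and 3 higher and 2 lower at 1 h, where higher means a less negative or more positive response in Ado KO cells. Over all rows tested, 3.34% were higher and 3.39% lower at that level at 6 h, beside 3.66% and 0% of the members, and 4.73% were higher and 5.09% lower at 1 h. The 3 at 6 h were Ndufab1, Ndufb4 and Ndufv2, with differences of 0.26 (SE 0.12), 0.31 (SE 0.15) and 0.27 (SE 0.13) between the responses (limma adjusted p = 0.713, 0.738 and 0.738). The median of this difference was 0.053 for the members and 0.029 for all rows tested. The larger number of calls in control cells is therefore not shown to be a difference between the genotypes, nor do these tests show that the responses were alike.

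Sdhd, an anchor subunit of complex II, varied more between libraries of the same group than any other member. Its pooled SD within groups was 1.12 log2 CPM, while the median over the 82 members was 0.121. In Ado KO cells at 1 h it stood at 5.83, 1.19, 3.90 and 6.43 log2 CPM, against 6.33, 6.38, 5.63 and 5.62 in untreated Ado KO cells. In control cells at 1 h it stood at 6.39, 3.98, 6.66 and 6.42, against 4.95, 5.53, 5.87 and 5.89 in untreated control cells. Thus 3 of the 8 libraries at 1 h were low, both replicate 2 libraries of guide 1 and Ado KO library 2-1, and the groups overlapped. The 1 h difference in Ado KO cells was -1.65 (SE 0.61, limma adjusted p = 0.486), and -0.58 without library 1-2. Between Ado KO and control cells at 1 h it was -1.52 (SE 0.64, limma adjusted p = 0.230), -0.46 without that Ado KO library and -2.14 (limma adjusted p = 0.0823) without control library 1-2. Without Ado KO library 2-2, the highest of its group, the difference between genotypes at 1 h was -2.23 and passed the test (limma adjusted p = 0.0344), and the difference from untreated Ado KO cells was -2.36 (limma adjusted p = 0.0715). Sdhd at 1 h was thus not called with all libraries. Among fits that left out a single library, it passed only between genotypes without Ado KO library 2-2. The other 3 subunits of complex II had no library as far from the rest: at 1 h Sdhb stood at 6.76, 6.63, 6.68 and 6.70 log2 CPM in Ado KO cells and between 6.40 and 6.97 in control cells.

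The rows whose pattern over the 24 libraries was most like Sdhd, by Pearson correlation of log2 CPM, were Tap2 (0.983), Mrps28 (0.977), Snhg6 (0.969), Crtc2 (0.961), Ost4 (0.960) and Cops7a (0.950). These correlations are a description, share the normalization of the table and rest on the few low libraries. In Ado KO library 1-2 at 1 h, Tap2 stood at 3.01, Mrps28 at -0.99 and Snhg6 at 0.05 log2 CPM. That library had 28 of 5702 rows more than 2 log2 units below the median of the other libraries, where each of the other 23 libraries had 0 to 5.

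**Figure D4:**
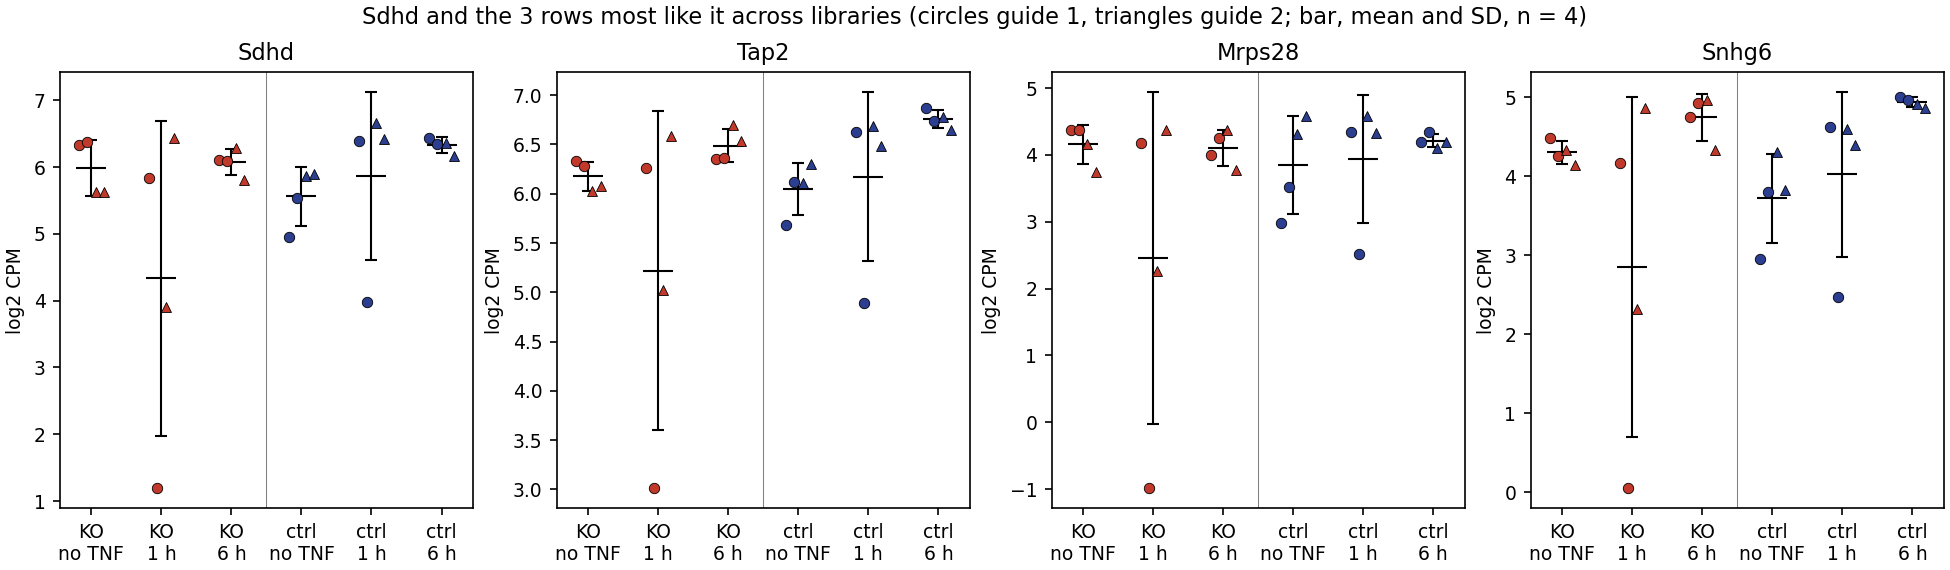
Log2 CPM of Sdhd and of the 3 rows most like it across the 24 libraries, with times running from untreated (no TNF) to 6 h within Ado KO (KO) and control (ctrl) cells. Circles are guide 1, triangles guide 2, and bars give the mean and SD of 4 libraries; the lowest point in each panel is Ado KO library 1-2 at 1 h, with Sdhd at 1.19.

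Neighbouring genes of oxidative metabolism were counted in the same fit at 6 h, where 2.02% of all rows tested were called lower in Ado KO and 10.3% in control cells. Of 14 nuclear subunits of cytochrome oxidase that were tested, 0 were called in Ado KO cells (2 lower at an unadjusted p under 0.05) and 4 (28.6%) fell in control cells. These were Cox5a (-0.25, limma adjusted p = 0.0103), Cox4i1 (-0.28, limma adjusted p = 0.0140), Cox8a and Cox5b. Of 17 genes of the TCA cycle and pyruvate dehydrogenase, 0 were called in Ado KO cells, with 0 at an unadjusted p under 0.05, and 2 (11.8%) fell in control cells, among them Suclg1 by 0.31 (limma adjusted p = 0.00270). Of 15 genes for cytochrome c and coenzyme Q, 0 were called in Ado KO cells and 2 (13.3%) fell in control cells, Coq5 (-0.67, limma adjusted p = 0.00482) and Coq10a (-0.72, limma adjusted p = 0.00811), while Coq10b rose (0.67, limma adjusted p = 0.0348). Of 20 assembly factors outside the name rule, 0 were called in Ado KO cells, and in control cells Tmem70, which helps to assemble the ATP synthase, rose by 0.47 (limma adjusted p = 0.0172) while Uqcc3 (-0.32) and Ecsit (-0.49) fell, 10.0% of the list. The shares of the last 3 lists called lower in control cells lie near that of all rows tested.

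Ribosomal protein genes were counted in the same way. Of 77 mitochondrial ribosomal proteins, 1 fell in Ado KO cells and 14 in control cells, with Mrps6 lower by -0.39 in Ado KO cells and by -0.47 in control cells (limma adjusted p = 4.15e-05 and 1.02e-06). Of 83 cytosolic ribosomal proteins, 1 fell in Ado KO cells, Rps28 (-0.23, limma adjusted p = 0.0482), and in control cells 28 fell, led by Rpl8 and Rps3 (-0.31 each), while Rpl22l1 rose (0.45). As shares of each list, members called lower in control cells made up 23.2%, mitochondrial ribosomal proteins 18.2% and cytosolic ribosomal proteins 33.7%, beside 10.3% of all rows tested. No test set the lists against each other.

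**Figure D5:**
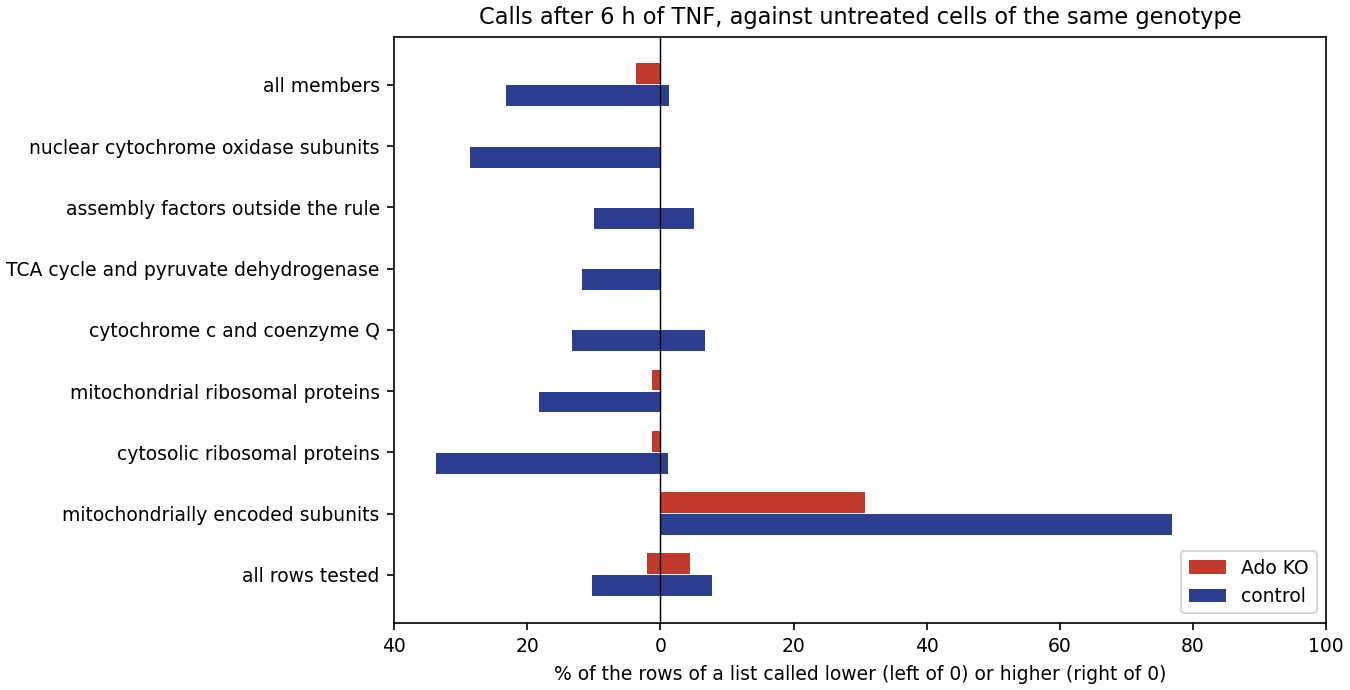
Share of the rows of each list, in %, called lower (left of 0) or higher (right of 0) by limma after 6 h of TNF, in Ado KO (red, upper bar of each pair) and control (blue) cells. Members called lower came to 3.66% in Ado KO and 23.2% in control cells, beside 2.02% and 10.3% of all rows tested. Mitochondrially encoded subunits were called higher in 30.8% and 76.9%, beside 4.42% and 7.74% of all rows tested.

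The 13 subunits encoded by mitochondrial DNA were counted apart. At 6 h, 4 of 13 rose in Ado KO cells and 10 of 13 in control cells, and 0 fell in either, with medians of 0.280 in Ado KO and 0.642 in control cells. Of all rows tested, 4.42% were called higher in Ado KO and 7.74% in control cells. The message mt-Nd5, for a proton-pumping subunit of complex I, averaged 8.49 ± 0.19 log2 CPM in Ado KO cells at 6 h, against 7.07 ± 0.18 in untreated Ado KO cells (SD, n = 4 each; 1.41, SE 0.18, limma adjusted p = 6.46e-07). In control cells mt-Nd5 averaged 9.07 ± 0.25 at 6 h, against 7.01 ± 0.12 in untreated control cells (2.06, SE 0.18, limma adjusted p = 1.46e-10). The catalytic cytochrome oxidase subunit mt-Co1 rose by 0.66 in Ado KO cells and by 1.02 in control cells (SE 0.07 each; limma adjusted p = 1.42e-08 and 4.15e-13). Mitochondrially encoded rows made up 2.482% ± 0.110 of the summed CPM in Ado KO cells at 6 h, against 2.16% ± 0.161 in untreated ones, and 3.00% ± 0.185 in control cells at 6 h, against 2.23% ± 0.223 in untreated ones (SD, n = 4 each). At 1 h the share was 2.022% ± 0.306 in Ado KO cells and 2.852% ± 0.487 in control cells (SD, n = 4 each). The control libraries at 1 h stood at 2.62%, 3.58%, 2.66% and 2.55%, all above the untreated control libraries (1.97% to 2.5%), and library 1-2 stood apart with 3.58%.

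Among 16 regulators of mitochondrial genes that were tested, Ppargc1b, which codes for the coactivator PGC-1 beta, fell in both genotypes at 6 h. It averaged 2.15 ± 0.25 log2 CPM in Ado KO cells at 6 h, against 3.14 ± 0.22 in untreated Ado KO cells, a change of -49.9% (limma adjusted p = 0.000606) without overlap. In control cells Ppargc1b averaged 2.35 ± 0.45 at 6 h, against 3.19 ± 0.16 in untreated control cells, a change of -44.3% (limma adjusted p = 0.00258) with an overlap (SD, n = 4 each). Myc rose in control cells by 0.85 (SE 0.28, limma adjusted p = 0.0320) and had a difference of 0.81 (SE 0.28, limma adjusted p = 0.0857) in Ado KO cells, and Gabpb1, a subunit of GABP, rose in control cells by 0.82 (limma adjusted p = 0.0207). Nrf1 had fold changes of 0.04 in Ado KO and 0.01 in control cells, Tfam of 0.00 and 0.23, and Pprc1 of 0.21 and 0.10, and none of them passed. Ppargc1a reached 0 on the log2 scale in 1 of 24 libraries and was not tested.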

How the data were processed

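Libraries from 24 MC38 samples were made from total RNA with Lexogen's QuantSeq 3' kit, per the labels' protocols. HISAT2, featureCounts from Subread, limma, cutadapt 1.7 and FastQC, and the builds GRCm38 and mm10, are named without order or settings in the submitters' processing notes. The deposited table holds log2 CPM values normalized by the authors. That unit, and a normalization to a common distribution, were inferred from the values, whose unlogged sums were 998900 to 999014 per library.

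Values were used as deposited, and rows at 0 or more in at least 4 libraries were kept (13272 of 15390). A model of 6 group means was fitted with limma 3.58.1 (statmod 1.5.0, R 4.3.3), with the 4 guide populations as a random block (correlation 0.0485) and a trended variance. Tests were two-sided with Benjamini-Hochberg adjustment over all rows kept, at a threshold of 0.05. The fit was tested on simulated data. Those libraries were drawn independently and without a guide effect, so the simulation could not check the guide block or the p-values between genotypes. No library size was given, so depth was estimated from the spacing of low values. Those values had already been normalized, so the estimates are rough and may not give each library's own depth. At this depth 617 to 1013 rows per library stood at the lowest value. Roles, lists and the rule for named genes (called members with the smallest adjusted p per class, all members called between genotypes, extremes of level, c-ring paralogs) were chosen with earlier results of these data known. Positions and biotypes came from GENCODE M21, where 15217 symbols matched 1 gene. For control guide 2 at 1 h, titles and column names number the replicates in opposite ways. Columns were joined through the description and numbers follow the titles. Matplotlib 3.10.9 (Python 3.11.15) drew the figures.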

Additional observations from a re-analysis of the deposited data

Results flagged for a closer look

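Among 26 members given with values, each of 156 groups of 4 libraries was searched for a library whose gap to the nearest other exceeded Dixon's 95% limit. It found 11 such values, where chance gives about 1 in 20 groups. In Ado KO cells at 6 h these were Ndufa8 at 6.68 log2 CPM in library 1-1 (the other 3 at 6.54 to 6.55), Ndufb3 at 7.15 in 1-2 (6.83 to 6.87) and Ndufb4 at 5.52 in 2-1 (5.26 to 5.30). In Ado KO cells at 1 h it was Ndufb8 at 8.79 in 2-2 (9.00 to 9.02). In control cells at 6 h it was Atp5b at 8.72 in 1-1 (8.82 to 8.83). Control library 1-2 at 1 h held 4 of the 11: Atp5g3 at 9.25 (9.45 to 9.49), Atp5h at 7.65 (7.40 to 7.42), Sdhd at 3.98 (6.39 to 6.66) and Uqcrc1 at 7.14 (7.45 to 7.48). In untreated control cells they were Atp5k at 8.35 in 2-2 (8.23 to 8.24) and Ndufb2 at 6.14 in 1-1 (5.86 to 5.90).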

How the results depend on the processing

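No fold change of a called member reversed under any alternative run. The counts of members called moved as follows. In Ado KO cells at 6 h (3) they were 5 with guide populations as fixed terms, 1 with no guide block, 1 with protein-coding rows normalized again, 1 with a variance without a trend, 0 without guide 1, 0 without guide 2, and 0 to 2 without single libraries. In control cells at 6 h (20) they were 7 without guide 1, 11 without guide 2 and 10 to 21 without single libraries. Between genotypes in untreated cells (0) they were 1 with guides fixed and 2 without guide 1. Between genotypes at 1 h (2) they were 1 with protein-coding rows, 0 without a trend, 0 without guide 1, 5 without guide 2 and 0 to 4 without single libraries, with 0 without control 1-1 or 1-2 or Ado KO 1-1, 1-2 or 2-1, and 4 without Ado KO 2-2. Between genotypes at 6 h (1) they were 3 with guides fixed, 2 with the stricter filter, 2 on log2(CPM + 1), 0 without guide 1, 0 without guide 2 and 1 to 2 without single libraries, with 2 without control 2-2. The causes were not tested. With 1 guide left out, each group kept 2 libraries.

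With the replicate block the counts were 3 and 20 at 6 h and 0, 2 and 1 between genotypes. The replicate numbers gave no pairing: of 24 pairs of same-numbered libraries 1 had deviations correlated over 0.1, in a range of -0.178 to 0.105. The 1 h responses and the differences between responses had 0 calls under every setting. Of 26 calls, 20 held with no guide block, 18 without a trend, 4 without guide 1 and 13 without guide 2. Of the other members called in control cells at 6 h, the call ended in 7 of 8 fits without 1 library for Ndufs7 and Ndufab1-ps. It ended in 6 for Atp5k-ps2, in 5 for Uqcrc1 and Ndufa8, and in 4 for Ndufb7 and Ndufv3. For Ndufa7 it ended in 3, and for Atp5b, Ndufab1 and Ndufb9 in 1. At the estimated depth, low rows such as Ndufaf1 and Atp5s carry little precision.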
